A study of Macaca mulatta with 136 samples.

Results

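Macrophages and microglia, the resident phagocytes of the eye, were followed here through 10 genes. These genes were AIF1, CSF1R, IL34, CD68, PTPRC, CD163, MRC1, LYVE1, P2RY12 and CX3CR1. All but IL34 serve as markers of these cells, while IL34 is a ligand of CSF1R and does not mark them. Each gene was taken as the entry whose assigned symbol equalled its name, which chose 10 of the 19422 gene entries. The libraries came from postmortem eyes of 2 adult rhesus macaques (Macaca mulatta), RM03 and RM04, with no treatment and no allele named in the labels. Punches of 2 mm were cut at the fovea, the perimacula, a nasal site and the periphery, and each was dissected into the neural retina and a second layer, RPE/choroid, which holds the retinal pigment epithelium and the pigmented vascular bed behind it. Both the right (OD) and the left (OS) eye of each animal were sampled, so that 2 tissues at 4 locations gave 8 groups of 4 libraries, 32 in all. Values of 4 eyes are given below in the order RM03 OD, RM03 OS, RM04 OD and RM04 OS. The sampling protocol names a temporal punch where the sample labels say peripheral, and the labels are followed here.

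CSF1R is the receptor tyrosine kinase on which macrophages and microglia depend for survival, and it has a pair of ligands, CSF1 and IL34. In the eye, microglia lie mainly in the inner and outer plexiform layers of the retina, where P2RY12 and CX3CR1 help them sense nucleotides and the neuronal chemokine CX3CL1. The choroid holds a separate and dense population of perivascular macrophages, for which the scavenger and endocytic receptors CD163, MRC1 and LYVE1 are common markers.

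Expression was measured by poly-A RNA-seq as estimated counts per gene and is given as CPM, in which counts are divided by the library total after its correction by edgeR's TMM factors and put on a common scale. Library totals lay between 42448903 and 78574055 estimated counts. Summed rod markers were at 3667 to 26590 CPM in retina and at 27.5 to 858 CPM in RPE/choroid, and summed pigment epithelium markers at 281 to 2579 CPM in retina and 2672 to 21360 CPM in RPE/choroid. Of the 6 pigment epithelium markers, RLBP1 had the highest retinal mean at each location, from 158 CPM at the fovea to 1380 CPM at the periphery. Among the RPE/choroid libraries 2 stood apart, RM03 OD at the perimacula and RM03 OS at the periphery, with summed Schwann cell markers at 6260 and 9997 CPM and the lowest pigment epithelium sums of their groups. Where leaving them out turned the direction or changed the call of a difference printed below, the value without them is given as well. Periphery libraries were run on a flow cell of their own, so flow cell and periphery cannot be told apart, while fovea, perimacula and nasal libraries shared theirs. As 4 eyes came from 2 animals, p-values measure the spread between eyes, not between animals.

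All 10 genes were higher in RPE/choroid than in retina, and CSF1R, CD68, CD163, MRC1 and LYVE1 differed far more than P2RY12 and CX3CR1. This contrast is one of the named genes and not of cell types. The sum of 12 other microglial genes had a median of 163 CPM in retina and 1677 CPM in RPE/choroid at the fovea. At the periphery its medians were 117 and 2238 CPM. SALL1 made up the larger part of the retinal sum at the fovea and was far lower at the periphery, as given below. The fall of the retinal sum from fovea to periphery is therefore not read as one of microglial genes. For 13 other markers of tissue-resident macrophages the medians were 70.5 and 1506 CPM at the fovea, and 136 and 1230 CPM at the periphery. In edgeR's quasi-likelihood test, with p-values adjusted by the Benjamini-Hochberg method over all genes and called at 0.05, the 10 genes were called higher in RPE/choroid at the fovea, perimacula and periphery and 9 of 10 at the nasal site. Of all genes tested, 38.4% were called in that direction at the fovea, 39.0% at the perimacula, 38.6% at the nasal site and 37.9% at the periphery. All 10 genes passed the filter on low counts in each of these comparisons and those below, whereas a stricter filter, used as an alternative, removed LYVE1 from the fits with retina. In bulk tissue, fewer cells of a type and less RNA per cell cannot be told apart, here and throughout.

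**Figure D1:**
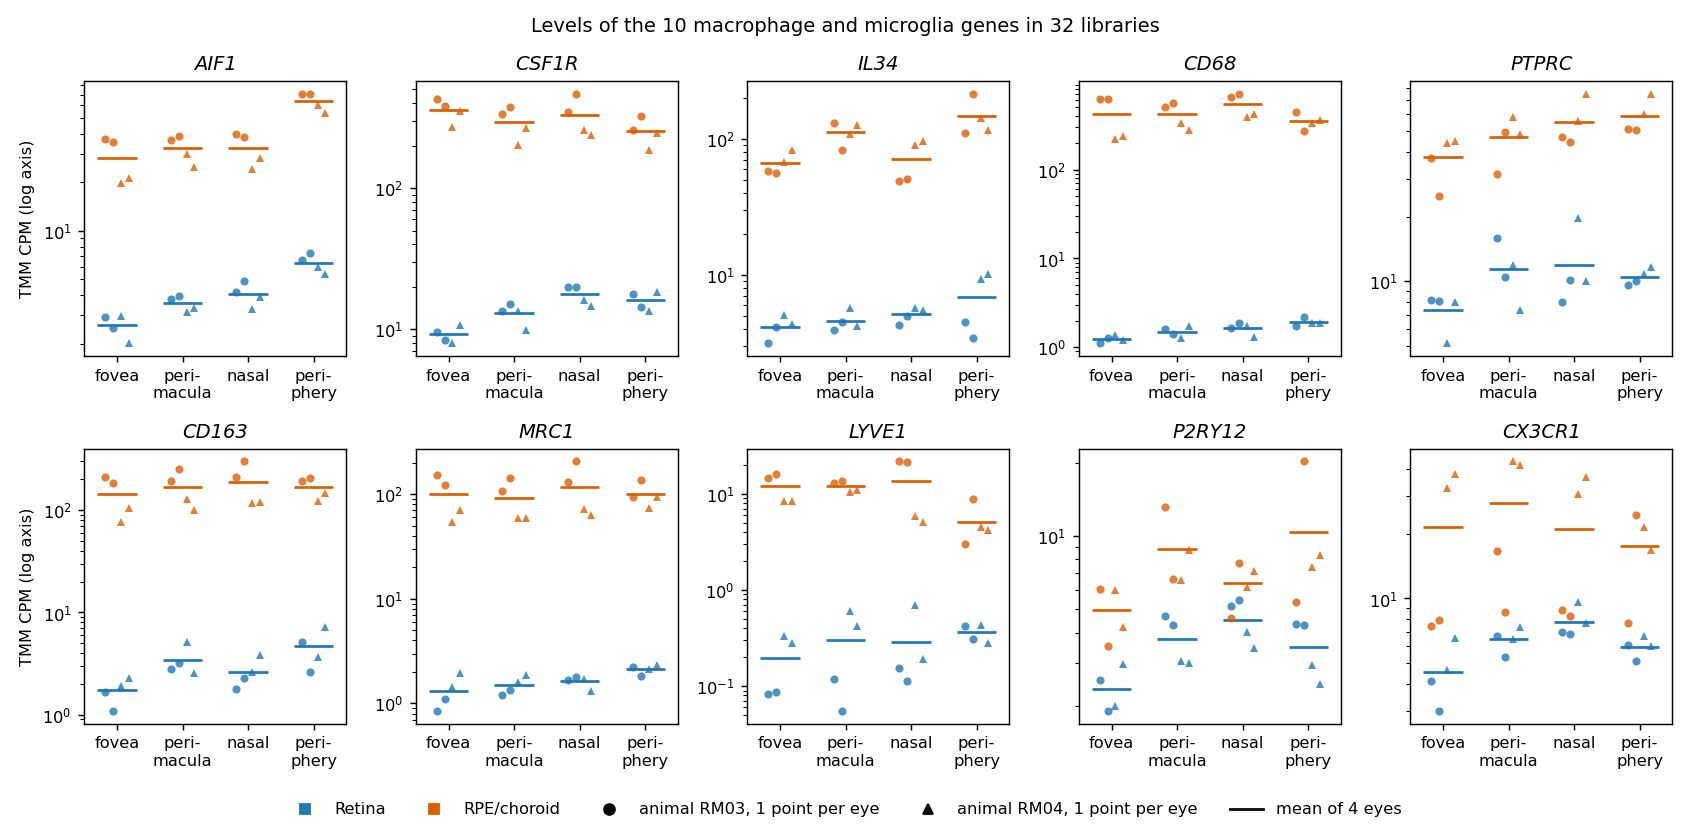
CPM of the 10 genes (log axis) at the 4 locations in retina (blue) and RPE/choroid (orange), with circles for the eyes of RM03, triangles for those of RM04 and a bar at the mean of 4 eyes. The tissues lie apart in most panels, but come close for P2RY12 and CX3CR1, whose nasal eyes overlap.

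CD68, a lysosomal glycoprotein abundant in phagocytes but not exclusive to them, had the widest gap. Its mean RPE/choroid level was 344 times the retinal mean at the fovea, 280 times at the perimacula, 332 times at the nasal site and 184 times at the periphery. CD163, the scavenger receptor for hemoglobin and haptoglobin, was 36.1 to 83.6 times as high in RPE/choroid. MRC1, the mannose receptor, was 47.0 to 75.5 times as high, and LYVE1, a hyaluronan receptor of perivascular macrophages and lymphatic endothelium, 14.2 to 61.2 times. CSF1R was 39.1 times as high at the fovea and 15.8 times at the periphery.

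The remaining genes differed less between the tissues. IL34 was 13.98 to 24.6 times as high in RPE/choroid, AIF1, the cytoplasmic protein IBA1, 8.01 to 10.9 times, and PTPRC, the leukocyte common antigen CD45, 4.11 to 5.63 times. CX3CR1 was 2.72 to 4.72 times as high. P2RY12, the purinergic receptor by which microglia are commonly told from other macrophages, had the smallest ratios, 2.10 at the fovea, 2.34 at the perimacula, 1.42 at the nasal site and 2.95 at the periphery. At the nasal site P2RY12 was higher in RPE/choroid in only 3 of 4 eyes and was not called (log2 difference, retina minus RPE/choroid, -0.54, SE 0.30, adjusted p = 0.105), although it was with the 2 Schwann-marker-rich libraries left out (adjusted p = 0.0478) or without RM03 OD (adjusted p = 0.0467). Its fovea call was lost without RM04 OD (adjusted p = 0.0787). The nasal CX3CR1 call (-1.20, SE 0.39, adjusted p = 0.00768) was lost without RM04 OD (adjusted p = 0.0823) or RM04 OS (adjusted p = 0.121).

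**Figure D2:**
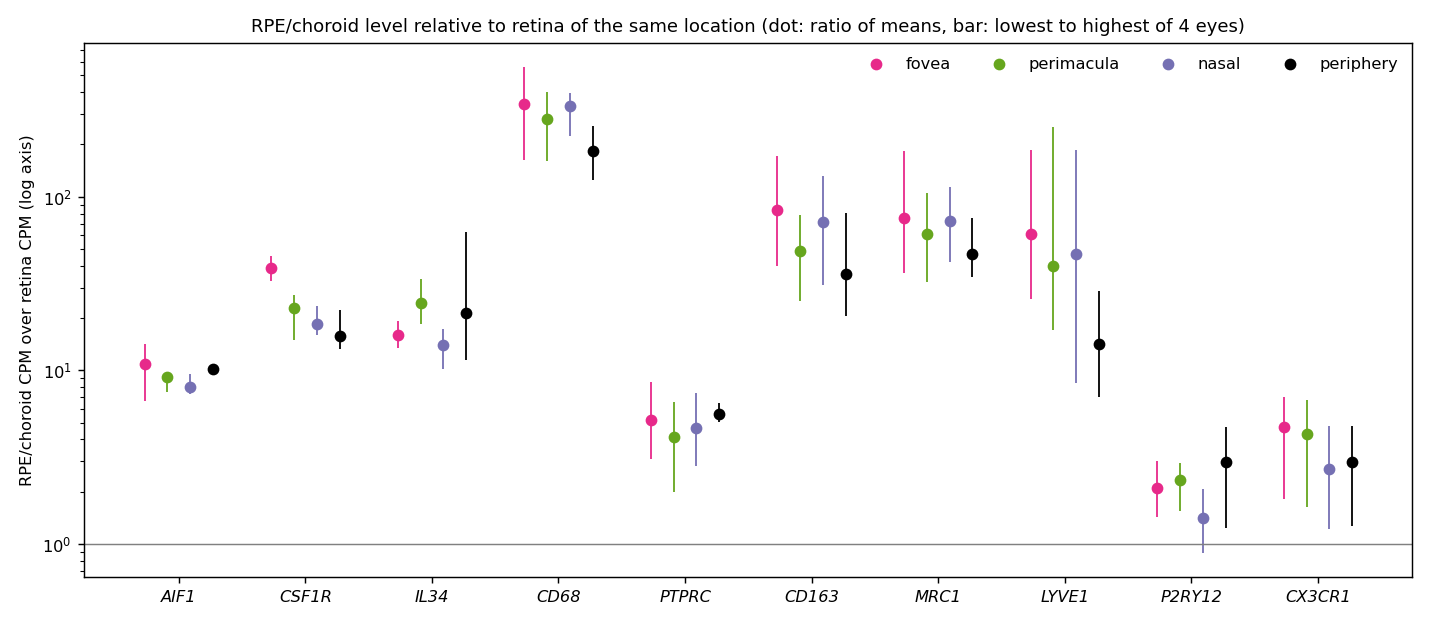
Ratio of the RPE/choroid CPM to the retina CPM for each of the 10 genes (log axis) at the 4 locations, with a dot for the ratio of the group means and a bar from the lowest to the highest of the 4 eyes. Ratios ran from 1.42 for P2RY12 at the nasal site to 344 for CD68 at the fovea.

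The retinal level of the choroid-rich genes can be set beside that of pigment epithelium markers in the same libraries. At the fovea, retinal CD68 was 0.291% of its RPE/choroid level, retinal CD163 1.20%, retinal MRC1 1.33% and retinal CSF1R 2.56%, where the retinoid isomerase RPE65 was at 1.09% and the chloride channel BEST1 at 1.37%. At the periphery the same shares were 0.543% for CD68, 2.77% for CD163, 2.13% for MRC1, 6.32% for CSF1R, 4.47% for RPE65 and 13.9% for BEST1. The part of carried-over RPE/choroid RNA in the retinal levels was not tested.

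In retina, each of the 10 genes had its lowest mean at the fovea. Against the periphery, 6 of 10 were called, all of them lower at the fovea, where 67.0% of all genes were called and 36% in this direction. Against the perimacula, 5 of 10 were lower at the fovea, with 35.2% of all genes called and 16.2% in this direction, and against the nasal site 4 of 10, with 52.2% called and 27.2% in this direction. The perimacular count fell to 0 without RM03 OD, without RM03 OS or with no animal covariate, to 1 without RM04 OD and to 2 with the eye as a replicate block. All 10 fold changes were below 0 in each of these comparisons, which share the foveal libraries. The median log2 fold change, fovea over the other location, was -0.62 for the 10 genes and -0.06 for all genes against the periphery, -0.45 and 0.01 against the perimacula, and -0.58 and -0.04 against the nasal site. Foveal and peripheral eyes did not overlap for 5 of 10 genes, against 53.5% of all genes. For the perimacula this count was 3 (29.2% of all genes), and for the nasal site 4 (44.2%).

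In RPE/choroid the genes went in both directions. Against the periphery, AIF1, IL34 and PTPRC were lower at the fovea and CSF1R and LYVE1 higher, 5 of 10 in all, where 44.1% of all genes were called, 22.9% lower and 21.2% higher at the fovea. The eyes did not overlap for 3 of 10 genes, against 31% of all genes. The median log2 fold change was -0.22 for the 10 genes and -0.06 for all genes. Against the perimacula none of the 10 was called (0.0447% of all genes were). An unadjusted p under 0.05 was found for 2 of them and for 1678 of all 15674 genes, and DESeq2 called 1 of them and 314 genes in all. Against the nasal site none was called (0.361% of all genes were). An unadjusted p under 0.05 was found for 3 of them and for 2449 of all 15789 genes, and DESeq2 again called 1 of them and 490 genes in all. With eyes that did not overlap there was 1 gene for the perimacula, P2RY12 (6% of all genes), and none for the nasal site (6.92%).

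**Figure D3:**
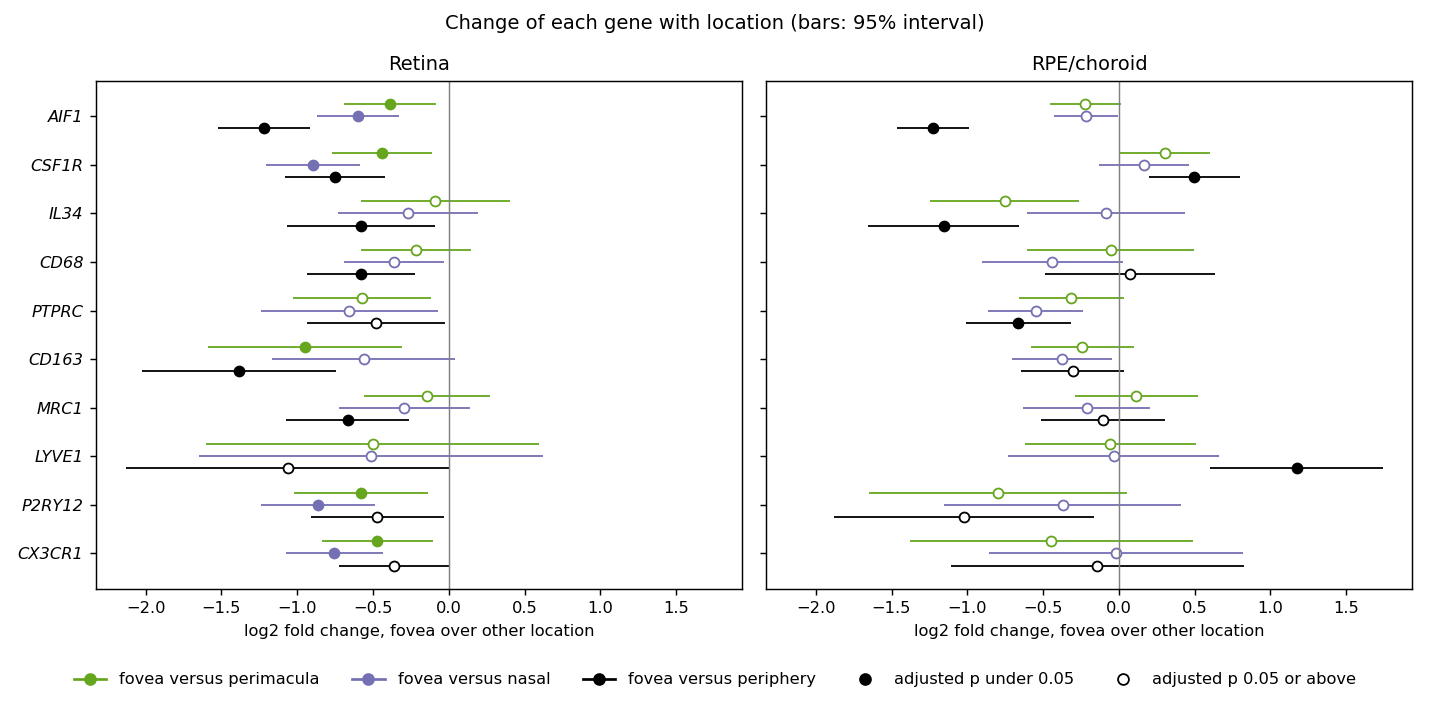
Log2 fold change, fovea over the other location, of the 10 genes in retina and in RPE/choroid, with 95% intervals, for the perimacula (green), the nasal site (purple) and the periphery (black); filled symbols had an adjusted p under 0.05. In retina all points lie below 0, and in RPE/choroid filled points, all against the periphery, lie on both sides of 0.

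CSF1R moved with location in opposite directions in the tissues. In retina its values were 9.60, 8.44, 7.94 and 10.8 CPM at the fovea, 13.6, 15.03, 13.4 and 9.95 CPM in the perimacula, 19.9, 20.01, 16.04 and 14.7 CPM at the nasal site, and 17.6, 14.5, 13.5 and 18.4 CPM at the periphery. Every nasal and peripheral eye was above every foveal eye, and the other neighbours in the order nasal, periphery, perimacula, fovea overlapped. The foveal mean was 9.18 ± 1.26 CPM and the nasal mean 17.7 ± 2.70 CPM (SD, n = 4). The log2 fold change of the fovea was -0.90 against the nasal site (SE 0.14, adjusted p = 0.000112), -0.75 against the periphery (SE 0.15, adjusted p = 0.000878) and -0.44 against the perimacula (SE 0.15, adjusted p = 0.0415). The perimacular call was lost without RM03 OD, RM03 OS or RM04 OD, one at a time (adjusted p = 0.140, 0.156 and 0.193), and with the eye as a replicate block (adjusted p = 0.0512).

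In RPE/choroid CSF1R was at 428, 382, 272 and 353 CPM at the fovea, 333, 378, 201 and 269 CPM in the perimacula, 347, 468, 257 and 239.5 CPM at the nasal site, and 258, 324, 187 and 245 CPM at the periphery. Each eye was higher at its fovea than at its periphery, though the groups overlapped, with means of 358.8 ± 65.8 and 253.4 ± 56.1 CPM (SD, n = 4). On the log2 scale the fovea was 0.50 above the periphery (SE 0.14, adjusted p = 0.0123), and 0.55 with the 2 Schwann-marker-rich libraries left out (adjusted p = 0.0212). The call was lost without RM03 OD (adjusted p = 0.0834) and without the animal as a covariate (adjusted p = 0.0961). Against the perimacula the difference was 0.30 (SE 0.14, adjusted p = 0.452) and against the nasal site 0.16 (SE 0.14, adjusted p = 0.622).

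The difference between the tissues was itself tested, as the retinal log2 fold change minus that of RPE/choroid. For CSF1R it was -1.30 for the fovea against the periphery (SE 0.23, adjusted p = 4.53e-05), -1.07 against the nasal site (SE 0.23, adjusted p = 0.00104) and -0.78 against the perimacula (SE 0.23, adjusted p = 0.0210). Of the 10 genes, 2 were called in the first of these tests, CSF1R and LYVE1, where 43.5% of all genes were called and 24.5% below 0. CSF1R alone was called against the nasal site (23.5% of all genes, 12.5% below 0) and against the perimacula (15.2%, 8.14% below 0). The perimacular call was lost without RM03 OD (adjusted p = 0.157) or RM04 OD (adjusted p = 0.205).

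The ligands of CSF1R changed with location in RPE/choroid in opposite directions, IL34 being lower and CSF1 higher at the fovea than at the periphery. IL34, a cytokine best known from neurons and keratinocytes, was at 57.9, 56.2, 67.9 and 82.5 CPM at the fovea, 131, 82.3, 108 and 126 CPM in the perimacula, 49.0, 50.5, 90.0 and 95.8 CPM at the nasal site, and 111, 215, 142 and 116.5 CPM at the periphery. The foveal eyes were all below the peripheral ones, and the highest value was that of the Schwann-marker-rich RM03 OS library. The fovea was lower than the periphery by a log2 fold change of -1.16 (SE 0.23, adjusted p = 0.00190), and by -0.86 without the 2 Schwann-marker-rich libraries (adjusted p = 0.000329). Against the perimacula IL34 was lower at the fovea in 4 of 4 eyes but not called (-0.75, SE 0.22, adjusted p = 0.274), while DESeq2 (adjusted p = 0.0476) and a fit of those locations alone (adjusted p = 0.0456) called it. Against the nasal site the difference was -0.08 (SE 0.24, adjusted p = 0.907).

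CSF1, the other ligand, had RPE/choroid means of 116 ± 29.3 CPM at the fovea, 114 ± 24.1 at the perimacula, 105.5 ± 22.3 at the nasal site and 55.4 ± 4.67 at the periphery (SD, n = 4). It was higher at the fovea than at the periphery by a log2 fold change of 1.03 (SE 0.15, adjusted p = 0.000358). In retina CSF1 was near 4 CPM at the fovea (3.99 ± 0.530) and the periphery (4.17 ± 1.16), with a log2 fold change of -0.00 (SE 0.17, adjusted p = 0.996). The tissue difference for CSF1 was -1.13 (SE 0.25, adjusted p = 0.000552).

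Retinal IL34 was low, at 3.12, 4.11, 5.06 and 4.31 CPM at the fovea and 4.51, 3.42, 9.35 and 10.2 CPM at the periphery. Only the peripheral eyes of RM04 lay above all foveal eyes. The log2 fold change of -0.58 was called (SE 0.22, adjusted p = 0.0379), but the call was lost without RM03 OD (adjusted p = 0.113), RM04 OD (0.197) or RM04 OS (0.214), with DESeq2's size factors in place of TMM (0.0518), with the eye as a replicate block (0.0556) and without the animal covariate (0.0828). Perimacular and nasal eyes lay between 3.90 and 5.68 CPM and were not called against the fovea. The tissue difference of IL34 for the fovea against the periphery was 0.53 (95% interval -0.17 to 1.22, adjusted p = 0.220), and 0.17 without the 2 Schwann-marker-rich libraries (adjusted p = 0.630).

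AIF1, the actin-bundling protein IBA1 used to stain microglia and macrophages, was lower at the fovea than at the periphery in both tissues. In retina it was at 2.91, 2.51, 2.98 and 2.01 CPM at the fovea, 3.78, 3.92, 3.16 and 3.34 CPM in the perimacula, 4.21, 4.90, 3.29 and 3.87 CPM at the nasal site, and 6.61, 7.31, 6.01 and 5.37 CPM at the periphery. The foveal eyes were all below, and the peripheral eyes all above, those of the other locations. The fovea differed by a log2 fold change of -1.22 from the periphery (SE 0.14, adjusted p = 9.13e-06), -0.60 from the nasal site (SE 0.13, adjusted p = 0.00115) and -0.39 from the perimacula (SE 0.14, adjusted p = 0.0479). The perimacular call was lost without RM03 OD, RM03 OS or RM04 OS (adjusted p = 0.144, 0.142 and 0.138) and with the eye as a replicate block (adjusted p = 0.0622).

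In RPE/choroid AIF1 was at 37.2, 35.5, 19.9 and 21.2 CPM at the fovea, 36.4, 38.5, 30.1 and 24.98 CPM in the perimacula, 40.1, 38.0, 24.1 and 28.2 CPM at the nasal site, and 71.1, 70.7, 60.6 and 53.6 CPM at the periphery. The peripheral eyes stood above all others, while the other locations overlapped. Fovea and periphery differed by a log2 fold change of -1.23 (SE 0.11, adjusted p = 1.35e-05), next to the retinal -1.22, and the tissue difference was -0.06 (95% interval -0.42 to 0.29, adjusted p = 0.794). The perimacula and the nasal site were not called against the fovea (-0.22, adjusted p = 0.498, and -0.22, adjusted p = 0.307).

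PTPRC, the CD45 phosphatase carried by all white blood cells, was lower at the fovea than at the periphery of RPE/choroid, while its retinal calls depended on the fit. Its RPE/choroid values were 37.4, 24.99, 44.1 and 45.0 CPM at the fovea and 51.3, 50.6, 60.2 and 75.1 CPM at the periphery, without overlap. This log2 fold change of -0.66 was called (SE 0.16, adjusted p = 0.00608) but lost without RM04 OS (adjusted p = 0.0507). Each eye was also lower at the fovea than at its nasal site (46.9, 44.8, 55.9 and 74.7 CPM), which edgeR did not call (-0.55, SE 0.15, adjusted p = 0.118) and DESeq2 did (adjusted p = 0.0240).

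In retina PTPRC was at 8.22, 8.11, 5.14 and 7.99 CPM at the fovea and 9.61, 10.1, 10.8 and 11.6 CPM at the periphery, again without overlap, and the log2 fold change of -0.48 just missed the threshold (SE 0.21, adjusted p = 0.0594), which a fit of those locations alone passed (adjusted p = 0.0323). The perimacular eyes (15.9, 10.4, 11.98 and 7.36 CPM) and nasal eyes (8.02, 10.1, 19.7 and 10.1 CPM) spread more widely, and against the fovea PTPRC had log2 fold changes of -0.57 (SE 0.21, adjusted p = 0.0513) and -0.66 (SE 0.27, adjusted p = 0.0559). The first was called in 5 of 12 alternatives, among them DESeq2 (adjusted p = 0.0221), and the second in 2 of 12, DESeq2 (adjusted p = 0.0343) and the fit without RM03 OD (adjusted p = 0.0397). The tissue difference of PTPRC against the periphery was 0.16 (95% interval -0.54 to 0.85, adjusted p = 0.748). As PTPRC is also carried by lymphocytes, 9 T and NK cell markers were set beside it in RPE/choroid. Of these, 2 of 9 were lower at the fovea than at the periphery and none higher, where 22.9% of all genes were lower and 21.2% higher. The sum of the 9 markers was 83.4 to 101 CPM at the fovea and 97.3 to 156 CPM at the periphery, with none at 0. A sum of 5 B and plasma cell markers was 22.2 to 36.4 CPM at the fovea and 26.05 to 134.7 CPM at the periphery. The part of lymphocytes in the PTPRC result was not tested.

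CD68 was lower at the fovea than at the periphery of the retina. The retinal values were 1.11, 1.29, 1.37 and 1.21 CPM at the fovea, 1.63, 1.40, 1.26 and 1.73 CPM in the perimacula, 1.67, 1.87, 1.75 and 1.29 CPM at the nasal site, and 1.76, 2.21, 1.89 and 1.87 CPM at the periphery, from 53.5 to 158 estimated counts a library. Fovea and periphery did not overlap, and the log2 fold change was -0.58 (SE 0.16, adjusted p = 0.00767). The other comparisons were not called (-0.22, adjusted p = 0.337 for the perimacula, and -0.36, adjusted p = 0.0614 for the nasal site). In RPE/choroid CD68 was at 619, 629, 223 and 237 CPM at the fovea and 448, 275, 337 and 365 CPM at the periphery, and the log2 fold change was 0.07 (95% interval -0.49 to 0.63, adjusted p = 0.837), or -0.20 without the 2 Schwann-marker-rich libraries (SE 0.19, adjusted p = 0.441). The tissue difference of CD68 against the periphery was -0.78 (95% interval -1.47 to -0.09) and was not called (adjusted p = 0.0610). In foveal RPE/choroid the eyes of 1 animal lay above, and those of the other below, all peripheral eyes.

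Among the scavenger receptors, CD163 and MRC1 were lower in the foveal than in the peripheral retina. CD163 had the larger fold change. Its values were 1.66, 1.08, 1.91 and 2.29 CPM at the fovea, 2.78, 3.23, 5.19 and 2.58 CPM in the perimacula, 1.77, 2.29, 2.60 and 3.85 CPM at the nasal site, and 5.19, 2.59, 3.70 and 7.13 CPM at the periphery. Foveal eyes lay below all perimacular and peripheral eyes but overlapped the nasal ones. The log2 fold change of the fovea was -1.38 against the periphery (SE 0.29, adjusted p = 0.00123), -0.95 against the perimacula (SE 0.29, adjusted p = 0.0255) and -0.56 against the nasal site (SE 0.28, adjusted p = 0.111, but 0.0363 in a fit of those locations alone). The perimacular call was lost without RM03 OD, RM03 OS or RM04 OD (adjusted p = 0.0563, 0.0850 and 0.142).

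In RPE/choroid CD163 was at 213, 185, 76.1 and 106 CPM at the fovea, 192, 252, 129 and 101 CPM in the perimacula, 212, 300.4, 118 and 120.1 CPM at the nasal site, and 192, 208, 124 and 146 CPM at the periphery. The locations overlapped, and the log2 fold change against the periphery was -0.30 (95% interval -0.64 to 0.04, adjusted p = 0.134). The tissue difference of -1.19 for this gene (95% interval -2.25 to -0.12) was not called by edgeR (adjusted p = 0.0659) and was by DESeq2 (adjusted p = 0.0477).

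MRC1, which takes up mannosylated glycoproteins, was at 0.841, 1.10, 1.43 and 1.94 CPM in the foveal retina and 2.25, 1.82, 2.13 and 2.31 CPM in the peripheral retina. Each eye was lower at its fovea, with a log2 fold change of -0.67 (SE 0.19, adjusted p = 0.00740) that was not called without RM03 OD (adjusted p = 0.0897). The perimacular and nasal retinal eyes, at 1.20 to 1.86 CPM, were not called against the fovea. In RPE/choroid MRC1 was at 153, 122, 54.3 and 70.8 CPM at the fovea and 94.6, 137, 73.3 and 94.98 CPM at the periphery, and the log2 fold change was -0.10 (95% interval -0.51 to 0.30, adjusted p = 0.677).

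LYVE1 was the other gene, with CSF1R, that was higher at the fovea of RPE/choroid. It was at 14.7, 16.1, 8.44 and 8.43 CPM at the fovea, 13.1, 13.7, 10.4 and 10.9 CPM in the perimacula, 21.8, 21.3, 5.90 and 5.12 CPM at the nasal site, and 3.01, 8.74, 4.53 and 4.25 CPM at the periphery. Each eye was higher at its fovea than at its periphery, and the groups overlapped only through the Schwann-marker-rich RM03 OS library. On the log2 scale the difference was 1.17 (SE 0.26, adjusted p = 0.00400) and, without the 2 Schwann-marker-rich libraries, 1.45 (adjusted p = 0.00222). Of 4 lymphatic endothelial markers none was called in either direction, where 44.1% of all genes were called. Their sum was 335 to 364 CPM at the fovea and 201.5 to 387 CPM at the periphery.

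Retinal LYVE1 rested on 3.13 to 40.7 estimated counts a library. It was at 0.0820, 0.0870, 0.329 and 0.282 CPM at the fovea and 0.427, 0.306, 0.432 and 0.284 CPM at the periphery, and no retinal comparison of it was called (periphery, -1.06, SE 0.49, adjusted p = 0.0742). The tissue difference against the periphery was -2.07 (SE 0.84, adjusted p = 0.0495). That call was lost without RM03 OD (adjusted p = 0.282), RM03 OS (0.0793) or RM04 OS (0.0697), with the eye as a replicate block (0.0533), without the animal covariate (0.0516) and with no filter on low counts (0.0544), and it became -2.50 without the 2 Schwann-marker-rich libraries (adjusted p = 0.0250).

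Blood endothelial markers went with CSF1R, CSF1 and LYVE1. In RPE/choroid all 9 of them were called higher at the fovea than at the periphery, with a sum of 2001 to 3105 CPM at the fovea and 1229 to 1570 CPM at the periphery. Of all genes, 21.2% were called higher and 22.9% lower at the fovea in this comparison. Fibroblast markers went with IL34, AIF1 and PTPRC, with 3 of 5 lower at the fovea, none higher, and a sum of 2549 to 3341 CPM at the fovea against 4583 to 9416 CPM at the periphery. Schwann cell markers did likewise, with 3 of 4 lower at the fovea and a sum of 187 to 247 CPM against 420 to 9997 CPM. No marker of these lists was at 0 in either group, and their part in the results was not tested. Sums of other cell types lay apart as well. Pigment cell markers were at 5459 to 7166 CPM at the fovea and 9017 to 11080 CPM at the periphery, and mast cell markers at 38.6 to 64.2 against 12.5 to 32.4 CPM. Of the 4 mast cell genes present, HDC was under 3 counts in every foveal library and CPA3 in every peripheral library. The part of pigment and mast cells was not tested either. All 5 calls of the members in RPE/choroid stood without the 2 Schwann-marker-rich libraries.

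P2RY12 and CX3CR1, the microglial receptors, were lower at the fovea than at the nasal site and the perimacula in retina. P2RY12 was at 2.54, 1.90, 1.99 and 2.97 CPM at the fovea, 4.69, 4.29, 3.06 and 2.99 CPM in the perimacula, 5.15, 5.42, 4.02 and 3.46 CPM at the nasal site, and 4.34, 4.28, 2.93 and 2.45 CPM at the periphery. Foveal eyes lay below all perimacular and nasal eyes, while the peripheral eyes of RM04 overlapped them. The log2 fold change of the fovea was -0.86 against the nasal site (SE 0.18, adjusted p = 0.000837), -0.58 against the perimacula (SE 0.20, adjusted p = 0.0436) and -0.47 against the periphery (SE 0.20, adjusted p = 0.0554). The last was called without RM04 OS (adjusted p = 0.00400), and the perimacular call was lost without RM03 OD, RM03 OS or RM04 OD (adjusted p = 0.193, 0.145 and 0.144) and with the eye as a replicate block (0.0630).

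CX3CR1, the receptor for CX3CL1 (fractalkine), was at 4.10, 2.98, 4.64 and 6.51 CPM at the fovea, 6.66, 5.33, 6.45 and 7.39 CPM in the perimacula, 6.97, 6.82, 9.66 and 7.72 CPM at the nasal site, and 6.07, 5.10, 6.67 and 5.995 CPM at the periphery of the retina. All nasal eyes were above the foveal ones. The log2 fold change of the fovea was -0.75 against the nasal site (SE 0.15, adjusted p = 0.000608), -0.47 against the perimacula (SE 0.17, adjusted p = 0.0475) and -0.36 against the periphery (SE 0.17, adjusted p = 0.0769). The perimacular call was lost without RM03 OD, RM03 OS or RM04 OD (adjusted p = 0.138, 0.0970 and 0.123), and the peripheral difference was called without RM04 OS (adjusted p = 0.0189).

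CX3CL1, the ligand of CX3CR1 and a product of neurons and endothelium, went the other way. Its retinal means were 162 ± 35.6 CPM at the fovea, 108 ± 23.7 at the perimacula, 96.5 ± 26.8 at the nasal site and 62.4 ± 26.7 at the periphery (SD, n = 4). It was higher at the fovea in each comparison, by log2 fold changes of 0.64 (adjusted p = 0.00543), 0.80 (adjusted p = 0.000268) and 1.49 (adjusted p = 3.38e-06) in the same order. In RPE/choroid it was higher at the fovea than at the periphery by 0.71 (SE 0.11, adjusted p = 0.000425). In retina the highest mean of CX3CL1 and the lowest mean of its receptor were both at the fovea.

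In RPE/choroid neither microglial receptor was called between locations. P2RY12 was at 6.05, 3.52, 5.97 and 4.21 CPM at the fovea, 13.2, 6.65, 6.56 and 8.77 CPM in the perimacula, 4.59, 7.75, 6.15 and 7.13 CPM at the nasal site, and 5.33, 20.2, 7.43 and 8.33 CPM at the periphery. Its highest values at the perimacula and the periphery were those of the 2 Schwann-marker-rich libraries. Against the periphery its log2 fold change was -1.02 (SE 0.39, adjusted p = 0.0531), which DESeq2 called (adjusted p = 0.0192), and -0.46 without those libraries (adjusted p = 0.145). CX3CR1 was at 7.44, 7.91, 32.6 and 38.2 CPM at the fovea and 7.66, 24.4, 21.6 and 16.8 CPM at the periphery, where RM03 OS was again Schwann-marker-rich. Its log2 fold change was -0.14 (95% interval -1.11 to 0.82, adjusted p = 0.815) and 0.52 without the 2 libraries (adjusted p = 0.0622).

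The retinal changes went with changes of other cell types. Against the periphery, all 8 rod markers and all 4 glial markers were lower at the fovea, 5 of 6 pigment epithelium markers were lower and none higher, and all 6 ganglion cell markers were higher. The pigment epithelium sum in retina was 281 to 415 CPM at the fovea, 485 to 801 at the perimacula, 1016 to 1228 at the nasal site and 1806 to 2579 at the periphery. Its largest member was RLBP1, with means of 158, 470, 728 and 1380 CPM in this order, while RPE65 was at 67.0, 80.2, 134 and 151 CPM. How much of the retinal sum came from pigment epithelium was not tested. The glial sum was 940.0 to 1037 CPM at the fovea and 1808 to 2841 at the periphery, and the sum of 9 endothelial markers 312 to 372 against 572 to 679 CPM, with 4 called lower and 1 higher at the fovea. None of these markers was at 0 in the retina, and their part in the results of the 10 genes was not tested.

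In RPE/choroid the eyes of RM03 and RM04 stood apart for several of the genes. CX3CR1 was 4.61 times as high in RM04 as in RM03 at the fovea, 3.38 times at the perimacula and 3.93 times at the nasal site, with no overlap between the eyes of the animals. At the periphery the eyes overlapped only through the Schwann-marker-rich RM03 OS library (24.4 CPM). There RM03 OD was at 7.66 CPM and the RM04 eyes were at 21.6 and 16.8 CPM. The macrophage receptors had the opposite order. CD68 was 2.72, 1.74 and 1.69 times as high in RM03 at the fovea, perimacula and nasal site, and MRC1 2.20, 2.11 and 2.50 times. CD163 was higher in both RM03 eyes at all 4 locations, by 2.19, 1.93, 2.15 and 1.48 times from the fovea to the periphery, as were AIF1 (1.24 to 1.77 times) and CSF1R (1.30 to 1.64 times). LYVE1 was higher in RM03 at the fovea, perimacula and nasal site, by 3.91 times at the last.

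Separation of the animals was common among all genes, at 59.7% of genes at the fovea of RPE/choroid, 60.1% at the perimacula, 59.5% at the nasal site and 43.5% at the periphery. RM03 was higher at all 4 locations for 7.79% of genes and RM04 for 7.68%. PTPRC was higher in RM04 at the fovea, nasal site and periphery, by 1.33 to 1.43 times, IL34 at the fovea (1.32 times) and the nasal site (1.87 times), and the eyes of the animals overlapped for P2RY12 at every location. In the same foveal libraries the pigment epithelium sum was 11680 and 8460 CPM in RM03 and 19680 and 19650 CPM in RM04, and the endothelial sum 2001 and 2408 against 3105 and 2999 CPM. With 2 animals these values are a description, and their part in the differences was not tested.

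**Figure D4:**
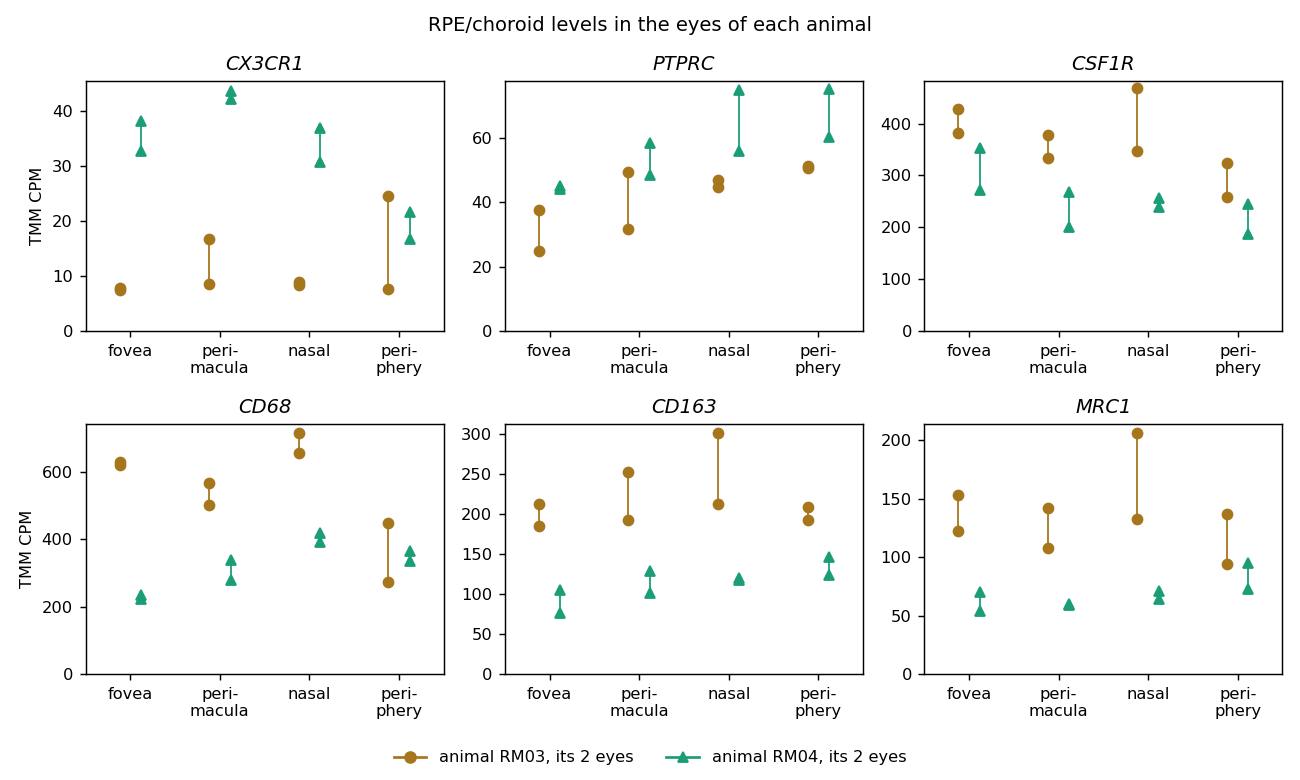
RPE/choroid CPM (axis from 0) of CX3CR1, PTPRC, CSF1R, CD68, CD163 and MRC1 at the 4 locations, with the right and left eye of RM03 and of RM04 as separate points. CX3CR1 lies higher in RM04 at 3 locations, and CD68, CD163 and MRC1 lie higher in RM03 at the same locations.

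Other myeloid genes were counted from lists that hold none of the 10. Of 12 microglial genes tested in retina, 8 were lower and 1 higher at the fovea than at the periphery, with a median log2 fold change of -0.47 (all genes -0.06). The complement genes C1QB (-1.18, adjusted p = 2.57e-05) and C1QC (-1.08, adjusted p = 0.000690) and the lipid receptor TREM2 (-1.69, adjusted p = 0.000684) were lower. SALL1, a zinc-finger transcription factor used as a microglial marker, went the other way by 2.89 (adjusted p = 1.36e-07), from 88.3 ± 3.14 CPM at the fovea to 12.4 ± 2.34 CPM at the periphery. In the foveal retina the whole microglial list, SALL1 included, had a median sum of 163 CPM, and P2RY12 a mean of 2.35 CPM. Which cells gave the SALL1 signal was not tested, so its rise is not read as one of microglia. Against the nasal site 7 of 12 were lower and 2 higher (median -0.58, all genes -0.04), and against the perimacula 1 and 1 (median -0.28, all genes 0.01). Of all genes, 52.2% were called against the nasal site, 27.2% lower at the fovea, and 35.2% against the perimacula, 16.2% lower.

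Of 12 markers of tissue-resident macrophages tested in retina, 8 were lower and 2 higher at the fovea than at the periphery (median -0.58). The iron exporter SLC40A1 (-1.22, adjusted p = 3.61e-07), the scavenger receptor COLEC12 (-1.55, adjusted p = 1.89e-06) and MS4A7 (-1.47, adjusted p = 4.08e-05) were lower, and the sialic acid receptor SIGLEC1 was higher (1.62, adjusted p = 2.26e-06). Of 13 phagocyte and lysosome genes, 9 were lower and 1 higher (median -1.13), among them the lysosomal protease CTSS (-1.36, adjusted p = 9.17e-07) and the engulfment receptor MERTK (-1.28, adjusted p = 3.50e-06). GPNMB (-3.49, adjusted p = 8.76e-07) is also a pigment cell gene, and its RPE/choroid level was 2904 ± 826 CPM at the fovea. Which cells gave the signal of these genes, MERTK among them, was not tested. Of 9 monocyte and granulocyte genes, 6 were lower and none higher (median -1.06), such as LYZ (-1.52, adjusted p = 0.000441) and S100A8 (-1.57, adjusted p = 0.000458).

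Genes of myeloid signalling and transcription split. Of 14, 5 were lower and 1 higher in the foveal than in the peripheral retina (median -0.53), where the lower genes included the kinase LYN (-0.84, adjusted p = 8.56e-05) and the transcription factor IRF8 (-1.18, adjusted p = 0.000839). In RPE/choroid 4 were higher and 4 lower (median -0.05, all genes -0.06), where CSF1 and CEBPA (1.31, adjusted p = 0.00244) were among those higher at the fovea and SPI1, the master regulator PU.1, was lower (-0.50, adjusted p = 0.00275).

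The other lists in RPE/choroid were mixed. Between fovea and periphery 44.1% of all genes were called there, 22.9% lower and 21.2% higher at the fovea. Of 12 microglial genes, 7 were lower and none higher at the fovea than at the periphery (median -0.44), including TREM2 (-1.37, adjusted p = 0.000153), from 18.5 ± 3.53 to 47.0 ± 9.32 CPM, and TMEM119 (-0.88, adjusted p = 0.0153). Of 13 macrophage markers, 3 were higher and 1 lower (median 0.05), with the endocytic adaptor DAB2 (0.57, adjusted p = 0.00411), the lectin CD209 (3.34, adjusted p = 0.00803) and CD163L1 (0.89, adjusted p = 0.0163) higher. Of 13 phagocyte genes, 6 were lower and 2 higher (median -0.45), and of 10 monocyte genes 2 were lower and none higher (median 0.05), these being CD14 (-0.79, adjusted p = 1.32e-05) and LYZ (-1.29, adjusted p = 2.75e-05). The MHC class II chaperone CD74 (-0.81, adjusted p = 0.000348) and HLA-DQA1 (-0.73, adjusted p = 0.00980) were among 3 of 4 tested antigen presentation genes that were lower. In retina 2 of 3 of them were lower at the fovea than at the periphery, CD74 by -2.12 (adjusted p = 3.66e-05) and HLA-DQA1 by -1.84 (adjusted p = 0.000258) on the log2 scale. Against the perimacula and the nasal site no gene of these myeloid lists was called in RPE/choroid, where 0.0447% and 0.361% of all genes were.

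Proteins that bind or signal to the products of the 10 genes were counted as a list of their own, which includes CSF1 and CX3CL1. Against the periphery, 4 of 11 were higher and 4 lower at the fovea in retina (median -0.00), where 67.0% of all genes were called. In RPE/choroid 5 of 12 were higher and 3 lower (median 0.20), where 44.1% of all genes were called. CD47, the signal by which cells hold off phagocytes, was lower at the fovea in both tissues, by -2.10 in retina (adjusted p = 6.05e-08) and by -0.59 in RPE/choroid (adjusted p = 0.000123). In retina 3 were higher and 3 lower against the perimacula (35.2% of all genes called), and 4 higher and 4 lower against the nasal site (52.2%). In RPE/choroid the growth factor TGFB2 alone was called against the nasal site (-0.56, adjusted p = 0.0331), and none against the perimacula.

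Likeness across libraries was described for the receptor and its ligand by the Pearson correlation of log2 CPM over the 16 libraries of a tissue, among genes outside the 10 with a mean of at least 1 CPM. In retina CSF1R was most like TTYH2 (r = 0.94), TRIP10, CACNA2D4, TOB1 and SMPD1 (0.92), and IL34 most like NOXA1 (0.93), C14H11orf71, PRAG1, ACOT8 and H2AFJ (0.91), among 13283 genes. In RPE/choroid CSF1R was most like YAP1 (0.94), CTSV, PCDH20, SLC5A6 and MDFI (0.90), and IL34 most like ABCB9 (0.94), TNNT3, ATL1, SCCPDH and MME (0.92), among 13580 genes. The 16 points share 4 locations, 4 eyes and 2 animals, so these values describe the libraries and carry no test. No gene was among the 5 for both CSF1R and IL34 in a tissue.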

How the data were processed

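Total RNA from 32 dissected tissue samples was sequenced as poly-A libraries over 136 lanes. Salmon 0.13 against Mmul_8.0.1 transcripts and tximport were used upstream, and the authors deposited, per lane, estimated counts per gene (length-scaled, in a column headed TPM whose sums ran from 7933344 to 39445657). Gene symbols are the authors' orthology calls. Of 19432 entries per lane, 10 repeated an identifier with identical values and were used once. Here the lanes of a library were summed (42448903 to 78574055) and rounded, so precision follows the estimated counts given beside low values.

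Tests used edgeR 4.0.16 (R 4.3.3, limma 3.58.1): filterByExpr at a minimum count of 10, TMM, the quasi-likelihood fit with the animal as covariate, and p-values adjusted by Benjamini and Hochberg's method across the genes tested, called at 0.05. The fovea was compared with the perimacula and periphery in a fit of those 3 locations, and with the nasal site in a fit of 4. Tissues and the tissue difference were tested in a fit of 8 groups. Fits were tested on simulated data. CPM and correlations used Python 3.11.15, numpy 2.4.6, pandas 2.3.3 and matplotlib 3.10.9, with a prior count of 2 before logs. Leaving out each eye, DESeq2 1.42.0 and other alternatives are in the closing section.

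The members and lists were chosen with earlier results of these data known. Genes named were the 10 members, up to 4 genes per list with the lowest adjusted p, and the 5 genes most like CSF1R and IL34. CSF1, CX3CL1, RPE65 and BEST1 were named for comparison with members after their values were seen. A gene of the signalling and transcription list is counted in that list but not reported here by itself. Same-numbered libraries came from 1 eye, per the labels. Deviations from location means correlated between libraries of the same eye by 0.463 on average in retina and 0.361 in RPE/choroid, by 0.461 and 0.381 between fellow eyes, and by -0.462 and -0.370 between animals. As the deviations of 4 eyes from their mean sum to 0, the values between animals are pushed below 0 by the calculation itself. Of 166 listed genes 149 were present, and the others, C1QA and most MHC class II genes among them, were not analysed here. No sequences or coordinates are given, since no genome of this build was used here.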

Additional observations from a re-analysis of the deposited data

Results flagged for a closer look

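Among 80 groups of 4 eyes, 2 held an eye set apart from the other 3 by Dixon's test at the 95% level, which by chance flags about 1 in 20 groups. PTPRC in the foveal retina of RM04 OD was at 5.14 CPM, with the other eyes at 7.99 to 8.22 CPM. LYVE1 in the nasal retina of RM04 OD was at 0.696 CPM, with the others at 0.114 to 0.191 CPM.

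Changes with location differed between retina and RPE/choroid for CSF1R and LYVE1, by the interaction test in edgeR. For CSF1R the difference in log2 fold change was -1.30 for the fovea against the periphery, -1.07 against the nasal site and -0.78 against the perimacula. For LYVE1 it was -2.07 against the periphery, on few retinal counts.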

How the results depend on the processing

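Of 1650 fold changes of single genes under the alternatives, 1580 kept their side of the threshold, 46 lost a call and 24 gained one. Among the 1580 were 37 differences, called in neither fit, that differed in sign, and none that was called changed direction. Plain CPM in place of TMM moved none of 80 group levels by more than the SD between eyes. Numbers of the 10 genes called changed as follows. For the fovea against the perimacula in retina, 5 were called, 2 with the eye as a replicate block and 0 with no covariate (CSF1R adjusted p = 0.0572, CD163 0.0649), while leaving out an eye gave 0 to 5, with 0 without RM03 OD or RM03 OS. For the same comparison in RPE/choroid, 0 became 1 in a fit of the compared locations only and 1 with DESeq2 (IL34), and for the fovea against the nasal site 0 became 1 with DESeq2 (PTPRC). The genes called in all went from 7 to 357 and 314 in the first comparison, and from 57 to 490 in the second. Of 2 tissue differences against the periphery, 1 remained, CSF1R, with no filter on low counts, with at least 10 counts in every library (which left LYVE1 untested), with the replicate block and with no covariate, and 1 to 2 when an eye was left out. The perimacular tissue difference of CSF1R was not called with no covariate, giving 0, and a fit of the compared locations only gave 2 with IL34; leaving out an eye gave 0 to 1. For the nasal tissue difference leaving out an eye gave 1 to 2. The replicate block changed no other call than those named here and in the report. Leaving out an eye gave 4 to 7 calls for the retinal fovea against the periphery, 4 to 5 against the nasal site, 4 to 5 for RPE/choroid against the periphery and 0 against its other locations, and 9 to 10, 10, 8 to 10 and 10 between tissues at the fovea, perimacula, nasal site and periphery. The alternative without the 2 Schwann-marker-rich libraries was chosen after seeing the data. The causes of these changes were not tested, beyond the smaller number of libraries or genes in some fits.

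Depth limits the retinal LYVE1 values, at 3.13 to 40.7 estimated counts a library. The design has 2 animals and 1 library per tissue and location of each eye, a flow cell effect on the peripheral values cannot be told apart from location, and every value is that of a mixed tissue.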
